A study of Mus musculus with 137 samples.

Results

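The genes described here are 32 mouse genes of protein folding and quality control in the endoplasmic reticulum (ER) and of the unfolded protein response, followed in bone marrow-derived macrophages (BMDMs) that lacked or carried a mutant form of the autophagy protein Beclin1. They were listed by name from the pathway, although the list was made with earlier results of these data known. They make up 32 of 34573 gene symbols in the count tables. They fall into 6 classes by role. The ER chaperones and co-chaperones are 11 genes (Hspa5, Hsp90b1, Calr, Canx, Hyou1, Sdf2l1, Creld2, Dnajb9, Dnajb11, Dnajc3 and Manf). The protein disulfide isomerases are 4 genes (P4hb, Pdia3, Pdia4 and Pdia6). ER-associated degradation is represented by 5 genes (Herpud1, Sel1l, Syvn1, Derl1 and Edem1) and the translocon by 2 (Sec61b and Ssr1). The stress sensors with the transcription factor gene Xbp1 are 4 genes (Ern1, Eif2ak3, Atf6 and Xbp1). The branch below the kinase PERK is 6 genes (Atf4, Ddit3, Trib3, Ppp1r15a, Asns and Chac1).

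Proteins bound for secretion, the plasma membrane or lysosomes enter the ER through the translocon, are folded by chaperones and oxidised by disulfide isomerases, and are sent to the proteasome by ER-associated degradation when folding fails. Unfolded protein is sensed by IRE1 (Ern1), which splices Xbp1 mRNA, by ATF6 (Atf6) and by PERK (Eif2ak3). XBP1 and cleaved ATF6 raise the transcription of chaperone and degradation genes, whereas PERK phosphorylates the initiation factor eIF2α, which slows translation in general and favours that of ATF4. ATF4 in turn drives CHOP (Ddit3), Trib3, Asns and the phosphatase subunit GADD34 (Ppp1r15a). Macrophages stimulated with LPS engage parts of this network while they secrete cytokines.

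Bone marrow of 7-week-old mice was cultured for 7 days with 20 ng/ml M-CSF, and the adherent macrophages were replated and given 100 ng/ml LPS together with 100 ng/ml IFN-gamma for 0, 6 or 24 h. Polyadenylated RNA was sequenced by Smart-Seq2, which does not record the strand. There were 3 cohorts with their own controls. In KO1 and KO2, Beclin1flox/flox-LysM-Cre+ cells (KO) were compared with Beclin1flox/flox-LysM-Cre- cells (WT), so that the floxed alleles were present in both groups; LysM-Cre acts in myeloid cells. In KI, Beclin1F121A/F121A cells (F121A) were compared with cells of littermates (WT). KO1 held 9 libraries per genotype at each time, under the numbers S33 to S35 (WT) and S36 to S38 (KO) with 3 libraries each. The labels do not say what these numbers name. They are read here as cultures, and the 3 libraries of a number at a time as repeats, which were summed, so that every n of 3 in KO1 rests on this reading. KO2 held 8 libraries per group except 7 WT libraries at 24 h, and KI held 6 per group. The labels do not say whether the KO2 and KI libraries came from separate mice or cultures, so the p-values measure only the spread between these libraries, which may be technical.

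The 137 libraries held between 1448218 and 15627379 counts. Becn1, the targeted gene, stood at 1.61 to 7.32 CPM (counts scaled to the library total) in KO2 KO libraries against 16.8 to 49.2 in their WT libraries, and at 6.17 to 29.4 in KO1 KO cultures against 21.9 to 60.7. In KI it was 24.3 to 57.8 in WT and 25.2 to 59.3 in F121A libraries. Every KO2 WT library held Xist (70.0 CPM or more) and every KO2 KO library held Ddx3y (5.33 CPM or more) with Xist at 1.62 or less, and in that cohort the sex of the cells cannot be told apart from their genotype. The KO1 libraries of both genotypes expressed Ddx3y and the KI libraries of both genotypes expressed Xist. Macrophage markers were high as a sum throughout, and all 9 were detected in each group of KO2. At 24 h, 1 of the 9 had a mean under 1 CPM in every group. Their sum at 24 h was 9928 to 11702 CPM in KO2 KO libraries against 12628 to 17109 in WT, without overlap. At 6 h it was 6702 to 8139 against 7837 to 9400, and at rest 9728 to 12118 against 9395 to 13155. The 4 monocyte markers summed to 10.3 to 19.4 CPM in resting KO2 KO libraries against 3.54 to 7.45 in WT, and at 24 h to 18.5 to 26.2 against 6.70 to 12.5, with 2 of 4 and 4 of 4 called higher. The part of these marker differences in the results below was not tested. In bulk RNA, fewer cells of a type and less RNA per cell cannot be told apart.

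Because the chaperone genes are known for a shared promoter element, the ER stress response element (ERSE), their promoters were read first. The element consists of CCAAT and CCACG held apart by a fixed spacer (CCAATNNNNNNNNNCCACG, read on both strands), and is bound by NF-Y and by ATF6 or XBP1. In the RefSeq promoter table (GRCm38.p6, 250 bases before to 50 bases after each start), 28 of the 32 members were present. Only the 250 bases before the start were searched. An ERSE lay in 8 of these 28 (28.6%) and in 37 of all 32851 promoters (0.113%). The stretches that hold it are shown 5′ to 3′ on the gene's strand, because these genes recur in the results; capitals mark the element, which reads CGTGG to ATTGG where it lies on the opposite strand.
Hspa5 (chr2:34772020-34772048, + strand): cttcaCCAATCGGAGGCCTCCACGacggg
Hsp90b1, distal (chr10:86705618-86705676, - strand): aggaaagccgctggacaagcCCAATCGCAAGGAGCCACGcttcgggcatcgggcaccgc
Hsp90b1, proximal (chr10:86705513-86705571, - strand): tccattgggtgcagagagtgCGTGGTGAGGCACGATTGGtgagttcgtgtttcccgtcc
Calr (chr8:84847055-84847113, - strand): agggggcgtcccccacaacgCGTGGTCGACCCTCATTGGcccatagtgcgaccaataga
Canx (chr11:50325780-50325838, - strand): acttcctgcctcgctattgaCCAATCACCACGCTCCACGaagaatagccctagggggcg
Creld2 (chr15:88819500-88819558, + strand): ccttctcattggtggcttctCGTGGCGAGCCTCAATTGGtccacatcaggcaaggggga
Dnajc3 (chr14:118937807-118937865, + strand): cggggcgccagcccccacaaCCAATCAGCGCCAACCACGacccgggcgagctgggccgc
Pdia6 (chr12:17266471-17266529, + strand): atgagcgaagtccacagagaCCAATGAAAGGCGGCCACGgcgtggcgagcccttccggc
Syvn1 (chr19:6046512-6046570, + strand): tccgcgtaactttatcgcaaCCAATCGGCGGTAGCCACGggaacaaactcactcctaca

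The elements ended between 26 bases (Syvn1) and 194 bases (the distal element of Hsp90b1) before the start. The Hspa5 stretch lies within an annotated Hspa5 exon and the others overlap no annotated exon. Herpud1, whose product links the degradation machinery to ubiquilins, instead held the related ERSE-II (ATTGG and CCACG with 1 base between them), which occurred in 10 of the 32851 promoters (0.0304%) and was looked for after the ERSE result was seen.
Herpud1 (chr8:94386357-94386407, + strand): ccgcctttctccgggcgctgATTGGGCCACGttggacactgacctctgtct

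The core of the unfolded protein response element (TGACGTGG) was in none of the 28 member promoters and in 185 of all promoters (0.563%). The C/EBP-ATF element through which ATF4 acts (TGATGCAA) was in 2 member promoters, those of Chac1 and Herpud1 (7.14%), against 0.791% of all promoters. A match is a string of letters in this window and is not a measured binding site.

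All 32 members passed the filter on low counts in KO1 and KI, and 31 passed in KO2, where Chac1 did not. Levels below are normalised CPM, that is, CPM on a library size scaled by the trimmed mean of M-values (TMM) within a cohort. Per kilobase of exon, the resting WT cells of KO1 and KO2 held most Pdia3 and those of KI most Hspa5. Pdia3, a thiol oxidoreductase of the calnexin cycle, was at 174.5, 152 and 215 normalised CPM per kb in KO1, KO2 and KI, which were scaled separately. Hspa5, which encodes the ER HSP70 BiP, was at 127.8 ± 42.1, 110.2 ± 10.6 and 245.9 ± 20.2 (SD, n = 3, 8 and 6), below Calr (133.6) in KO1 and P4hb (115.1) in KO2 by less than these SDs. P4hb, Calr, Canx and Hsp90b1 made up the rest of the highest 6 in each cohort, in differing order. Chac1 (0.387, 0.496 and 0.208) and Eif2ak3 (0.671, 0.534 and 0.437) were among the lowest, so that their counts carried the widest errors. Reads from overlapping genes could not be separated for Hsp90b1, Manf and Eif2ak3, which share 15.7%, 9.25% and 8.05% of their exonic bases with another gene.

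At rest, KO2 KO cells held less mRNA of 14 of 31 members than WT cells and more of none. Among all genes tested, 8.12% were called in this comparison and 4.38% were called lower. The calls (edgeR quasi-likelihood test, adjusted p under 0.05 over all genes) took in 6 of 11 chaperones, 3 of 4 disulfide isomerases, Herpud1, Xbp1 and 3 of 5 tested genes of the PERK branch. The median log2 fold change over the members was -0.31, against 0.01 over all genes. Groups did not overlap for 7 members, as was the case for 1.93% of all genes.

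BiP mRNA (Hspa5) was 403.2, 451.7 and 524.1 normalised CPM in the lowest, median and highest of the 8 resting KO2 WT libraries and 225.5, 279.1 and 337.9 in the 8 KO libraries. No KO library reached the lowest WT library, and the log2 fold change was -0.72 ± 0.11 (SE, adjusted p = 1.7e-06). Hsp90b1, which encodes the ER HSP90 GRP94, stood at 158.1, 172.5 and 231.7 in WT and at 103.4, 118.5 and 134.4 in KO libraries. These groups were also apart, with a log2 fold change of -0.59 ± 0.08 (adjusted p = 2.9e-07). Sdf2l1, a partner of the BiP co-chaperone DNAJB11, was 25.3, 29.1 and 41.1 in WT and 14, 19.8 and 22.3 in KO libraries, again without overlap (-0.67 ± 0.12, adjusted p = 6.1e-05). Calr, the lectin chaperone calreticulin, had the largest fold among called chaperones (-0.78 ± 0.16, adjusted p = 6.0e-04), although its libraries ranged widely, from 129.6 to 323.8 in WT and from 76.2 to 183.6 in KO, and overlapped. Manf (-0.55) and the BiP co-chaperone gene Dnajc3 (-0.37) were called lower as well. Summing libraries of neighbouring numbers ended the Dnajc3 call (adjusted p = 0.108).

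Of the disulfide isomerases at rest, Pdia3 stood at 400.9, 490.3 and 546.2 in KO2 WT and at 274.6, 305.2 and 434.2 in KO libraries, a log2 fold change of -0.54 ± 0.10 (adjusted p = 8.4e-05) with overlap at the edge. Pdia6 showed no overlap, at 87.1, 115.8 and 123.4 in WT and 66.5, 78.1 and 83.6 in KO (-0.47 ± 0.10, adjusted p = 6.5e-04). The Pdia4 difference was smaller (-0.33 ± 0.11, adjusted p = 0.0351) and its call was lost without a low-count filter (adjusted p = 0.0645) and with summed libraries (0.105). Herpud1 was 6.61, 8.86 and 11.2 in WT and 4.21, 5.57 and 7.45 in KO libraries (-0.64 ± 0.15, adjusted p = 0.00220), and the groups overlapped. Xbp1, whose spliced mRNA encodes the IRE1-dependent transcription factor, was 77.4, 99.1 and 105.1 in WT and 68.4, 74.7 and 85.7 in KO, with overlap (-0.34 ± 0.08, adjusted p = 0.00369). Neither translocon gene was called.

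The PERK branch divided at rest in KO2. Atf4 stood at 61.1, 66.9 and 70.6 in WT and at 34.5, 40.5 and 47.4 in KO libraries, without overlap (-0.73 ± 0.09, adjusted p = 5.0e-09). Asns, the asparagine synthetase and an ATF4 target, was 15.5, 23.4 and 28.6 in WT and 8.25, 12.9 and 14.1 in KO (-0.99 ± 0.13, adjusted p = 5.5e-08), which was the largest fold of any member called at rest. Trib3, a pseudokinase induced by ATF4 and CHOP, was 5.47, 7.85 and 9.39 against 3.25, 4.32 and 5.24, also without overlap (-0.79 ± 0.20, adjusted p = 0.00540). Ppp1r15a (0.04) and Ddit3 (0.23) were not called. The 17 members not called ranged from -0.61 (Eif2ak3) to 0.31 (Ern1) on the log2 scale.

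**Figure D1:**
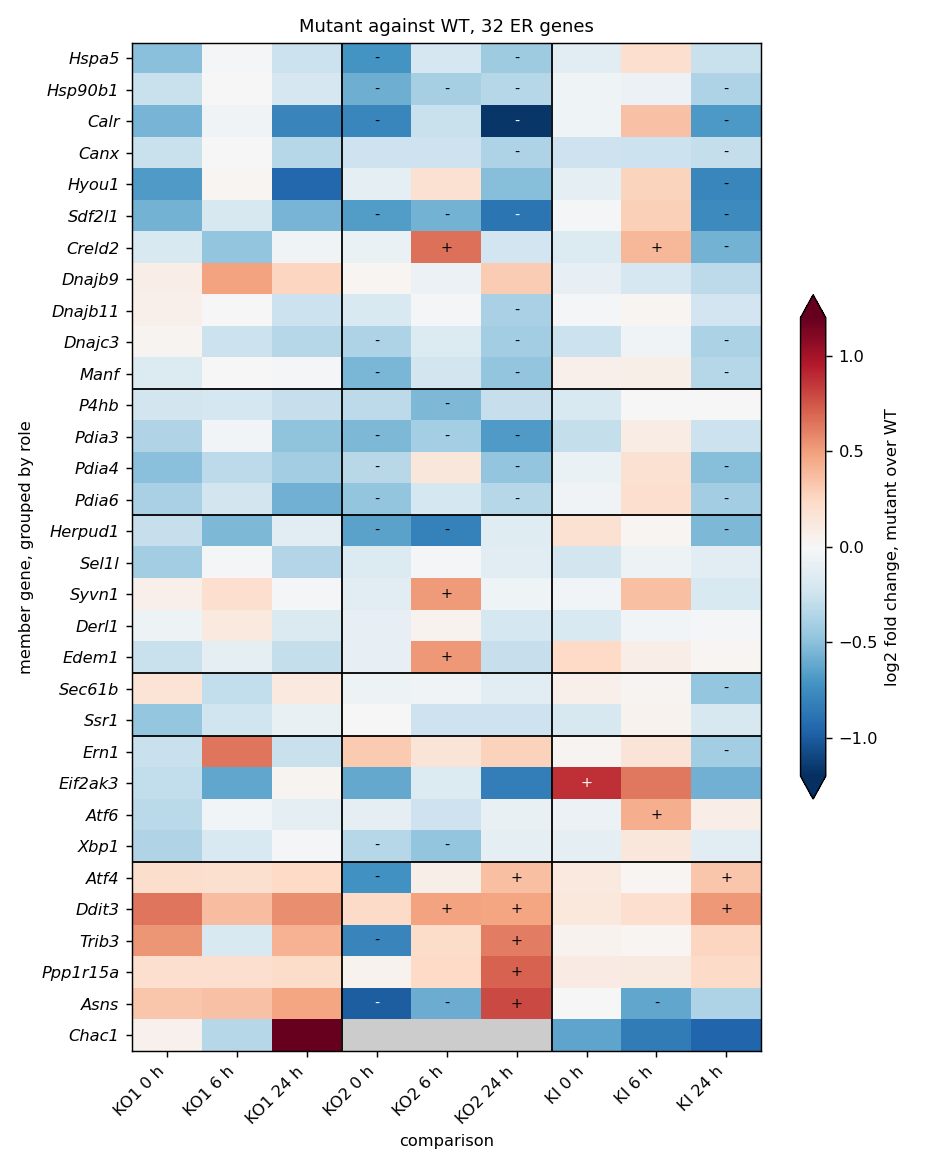
Log2 fold change of mutant against WT cells for the 32 members (rows, grouped by role) at 0, 6 and 24 h in KO1, KO2 and KI (columns), with the colour scale limited to ±1.2. A plus marks members called higher and a minus members called lower (edgeR, adjusted p under 0.05), grey marks Chac1 in KO2, which was not tested, and the minus signs gather in the chaperone and disulfide isomerase rows at 0 and 24 h in KO2 and at 24 h in KI, with no mark in KO1.

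After 6 h of stimulation the KO2 pattern was mixed: 4 of 31 members were higher and 7 were lower in KO cells, where 15% of all genes were called, 7.49% higher and 7.53% lower. Chaperones went both ways. Creld2, an ER protein with isomerase activity that is induced by ER stress, was 8.94, 11 and 15.9 in WT and 16.4, 17.7 and 22.6 in KO libraries, higher without overlap (0.66 ± 0.13, adjusted p = 1.0e-04). Hsp90b1 remained below its controls, at 129, 140 and 173.5 in WT and 96.8, 110.5 and 121.8 in KO (-0.40 ± 0.09, adjusted p = 4.3e-04). Sdf2l1 was 7.89, 11.1 and 14.1 against 3.67, 8.14 and 10.3 (-0.57 ± 0.15, adjusted p = 0.00653), with overlap. The Hspa5 difference at 6 h was -0.20 ± 0.11 (adjusted p = 0.222) and was not called. Groups did not overlap for 4 members (Hsp90b1, Creld2, Herpud1 and Xbp1), against 2.67% of all genes.

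Among the other classes at 6 h, P4hb, the main protein disulfide isomerase, was 187.2, 212.4 and 234.1 in KO2 WT and 106.6, 143.3 and 212.7 in KO libraries, below the WT median in 7 of 8 (-0.54 ± 0.12, adjusted p = 5.6e-04). Pdia3 was 246.1, 266.8 and 307.6 against 171.3, 206.2 and 260.6 (-0.41 ± 0.10, adjusted p = 0.00287). Herpud1 and the ubiquitin ligase gene of the same complex moved apart. Herpud1 was 6.59, 7.14 and 11.9 in WT and 3.19, 4.39 and 6.55 in KO libraries (-0.81 ± 0.17, adjusted p = 2.9e-04), whereas Syvn1, which encodes the ligase HRD1, was 5.20, 9.23 and 12.3 against 11.1, 12.5 and 16.3 (0.51 ± 0.15, adjusted p = 0.0142). Edem1, a mannosidase-like factor that hands glycoproteins to degradation, was higher in 7 of 8 KO libraries (0.52 ± 0.17, adjusted p = 0.0250). Xbp1 was 64.9, 74.8 and 90.0 in WT and 45.1, 54.3 and 61.8 in KO, without overlap (-0.47 ± 0.09, adjusted p = 3.7e-05).

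In the PERK branch at 6 h, Asns was still lower in KO2 KO cells, at 8.75, 13.9 and 18.6 against 15.6, 18.6 and 25.7 in WT (-0.60 ± 0.14, adjusted p = 0.00138). Ddit3, which encodes the transcription factor CHOP, was 10.9, 14.4 and 17.8 in KO and 5.20, 10.5 and 14.9 in WT (0.48 ± 0.16, adjusted p = 0.0322). Atf4 no longer differed beyond the threshold (0.07 ± 0.09, adjusted p = 0.682). Replicate 7 of the KO2 KO group at 6 h was low in several members but among the highest KO libraries in Ddit3 (17.8) and Edem1 (172.5). Without it, Ddit3 (adjusted p = 0.0617) and Edem1 (0.0643) were not called. The 20 members not called at 6 h ranged from -0.27 (Calr) to 0.24 (Ppp1r15a).

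At 24 h the KO2 cells showed opposite differences in the folding genes and the PERK branch. In KO cells, 11 of 31 members were lower and 5 were higher, against 4.99% and 6.22% of all genes and 11.2% in both directions. The 11 lower members were 8 of 11 chaperones and 3 of 4 disulfide isomerases, and the 5 higher members were all the tested genes of the PERK branch. Class medians were -0.42, -0.41 and 0.61 on the log2 scale. No gene of the degradation, translocon or sensor classes was called.

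Calr had the largest fold, at 659.6, 999.8 and 1037 normalised CPM in KO2 WT libraries at 24 h and 298.5, 383.8 and 510.5 in KO libraries, with no overlap (-1.17 ± 0.16, adjusted p = 3.2e-07). Sdf2l1 was 47.4, 67.2 and 83.7 in WT and 30.3, 35.3 and 42.8 in KO, also without overlap (-0.88 ± 0.12, adjusted p = 6.3e-08). Dnajb11, a BiP co-chaperone, stood at 144.9, 172.7 and 193.8 against 116.7, 129.6 and 147.5 and overlapped at the edge (-0.39 ± 0.09, adjusted p = 8.1e-04). BiP itself was again lower, with Hspa5 at 953.9, 1339 and 1608 in WT and 887, 952.8 and 1101 in KO libraries (-0.43 ± 0.11, adjusted p = 0.00522). Hsp90b1 (-0.34), Canx (-0.37), Dnajc3 (-0.42) and Manf (-0.47) were the other chaperones called lower. Canx, the membrane-bound lectin chaperone calnexin, lay near the threshold (adjusted p = 0.0489, and 0.0663 with DESeq2). With summed libraries Hspa5 (adjusted p = 0.0556), Dnajb11 (0.0578) and Pdia6 (0.0535) fell just outside it.

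Pdia3 was lower in KO2 KO cells, at 718.7, 797.3 and 914.4 at 24 h against 894.7, 1316 and 1536 in WT (-0.68 ± 0.10, adjusted p = 8.1e-07). Pdia4 was 43.7, 64.0 and 72.0 in KO against 71.7, 87.6 and 98 (-0.47 ± 0.11, adjusted p = 9.9e-04), and Pdia6 was 158.8, 182.8 and 197.7 against 182.2, 228.6 and 283.1 (-0.34 ± 0.10, adjusted p = 0.0161). All 3 pairs of groups overlapped. P4hb was not called (-0.28).

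**Figure D2:**
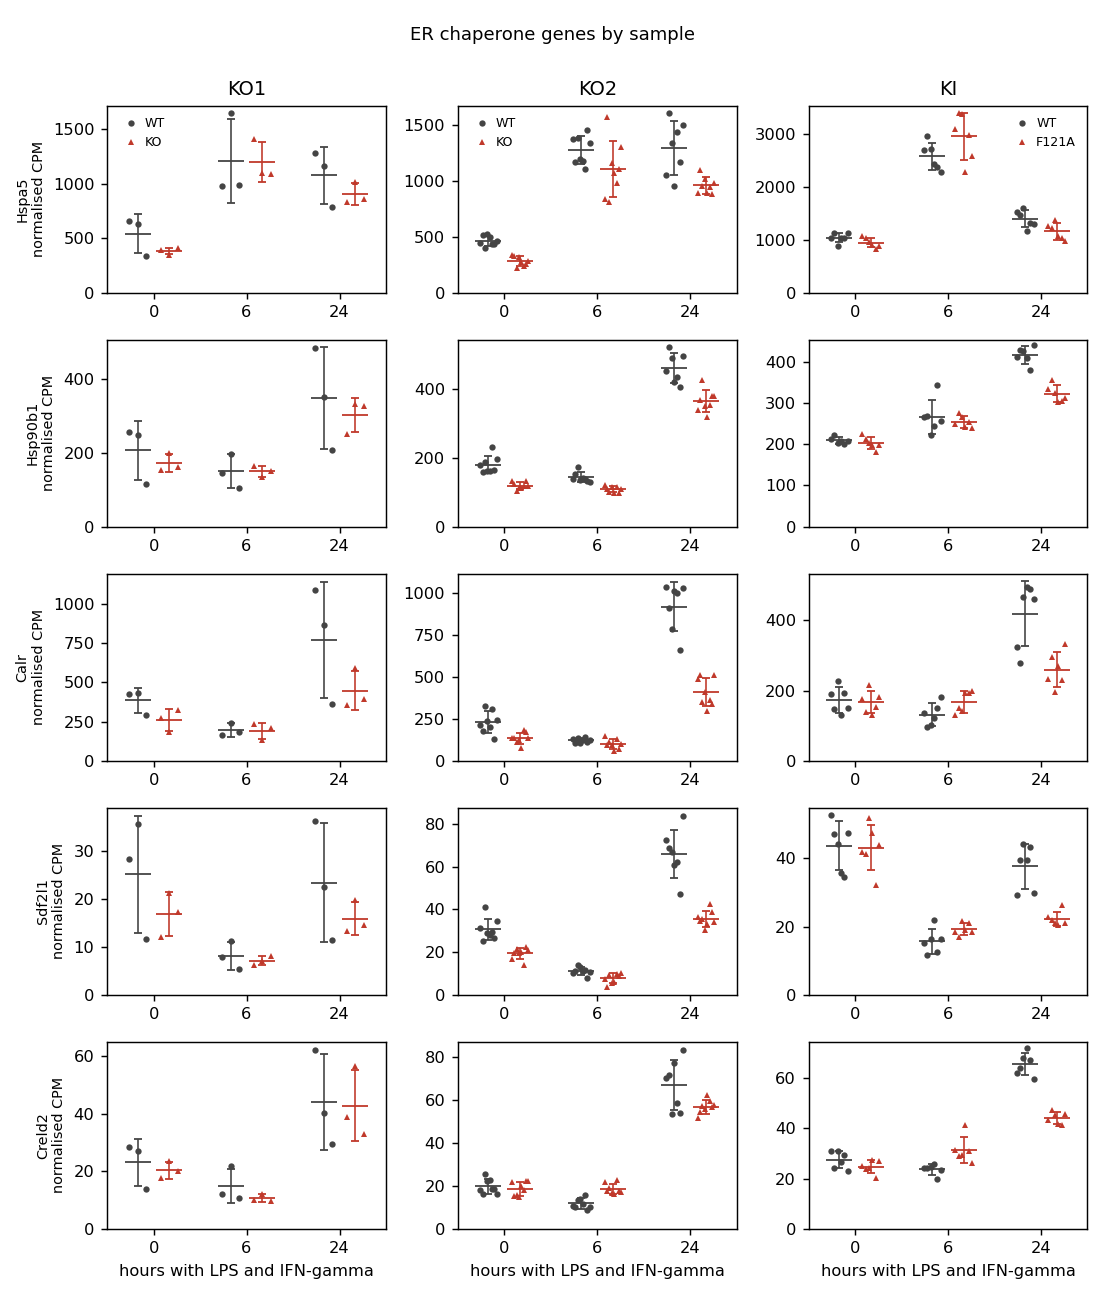
Normalised CPM of Hspa5, Hsp90b1, Calr, Sdf2l1 and Creld2 (rows) at 0, 6 and 24 h in KO1, KO2 and KI (columns), with WT as grey circles and mutant as red triangles, 1 point per library (per culture in KO1); horizontal lines are means and bars are ± SD, and each axis starts at 0. In KO2 at 24 h the Calr KO points lie between 298.5 and 510.5, all under the WT points, while the KO1 points of both genotypes mix.

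Among the PERK-branch genes at 24 h, Ppp1r15a stood at 20.2, 22.8 and 24.6 in KO2 WT and at 28.4, 38.3 and 41.6 in KO libraries, higher without overlap (0.71 ± 0.11, adjusted p = 2.6e-06). Asns was 10.5, 12.2 and 13.5 in WT and 13.9, 21.7 and 24.4 in KO, the reverse of its order at rest and again without overlap (0.79 ± 0.14, adjusted p = 2.0e-05). Atf4 was 86.9, 98.6 and 119.2 against 99.0, 130.8 and 165.8 in KO (0.36 ± 0.09, adjusted p = 0.00355), with overlap. Ddit3 (0.47, adjusted p = 0.0196) and Trib3 (0.61, adjusted p = 0.0231, in 7 of 8 libraries) were higher as well. With summed libraries Ddit3 (adjusted p = 0.0540) and Trib3 (0.0635) missed the threshold, and without the low-count filter so did Atf4 (0.0513). Groups did not overlap for 6 members (Calr, Sdf2l1, Dnajc3, Eif2ak3, Ppp1r15a and Asns), against 3.73% of all genes. Of these, Eif2ak3, the PERK gene, was just outside the threshold (-0.83 ± 0.29, adjusted p = 0.0512), at 2.04 to 3.19 in WT and 0.241 to 2.0 in KO libraries. The 15 members not called ranged from that value to 0.30 (Dnajb9).

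Whether the response differed between KO2 genotypes was tested per gene for the changes to 6 h and to 24 h together. This joint test gives 1 adjusted p for both parts and none for either part alone. It called 9 of 31 members, against 11.7% of all genes. The largest were in the PERK branch: from 0 to 24 h, Asns changed by 1.78 log2 units more in KO than in WT cells (adjusted p = 1.8e-10), Trib3 by 1.41 (4.8e-04), Atf4 by 1.09 (2.1e-09) and Ppp1r15a by 0.66 (0.00684). Atf4 (0.80) and Trib3 (1.01) had most of this difference at 6 h already, while Asns (0.39) did not. The other called genes were Creld2 (0.74 at 6 h and -0.15 at 24 h), Calr (0.50 and -0.39), Pdia4 (0.47 and -0.14), Edem1 (0.62 and -0.17) and Syvn1 (0.65 and 0.09). For these the KO minus WT difference was higher at 6 h than at rest, and at 24 h it was lower than at rest or, for Syvn1, close to it. The KO levels themselves need not follow this: Calr means in KO cells were 133.9, 100.7 and 408.1 normalised CPM at 0, 6 and 24 h, against 229.7, 122 and 919.7 in WT cells. The calls of Syvn1 (adjusted p = 0.0605) and Edem1 (0.0733) were lost without replicate 7 of the KO2 KO group at 6 h.

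**Figure D3:**
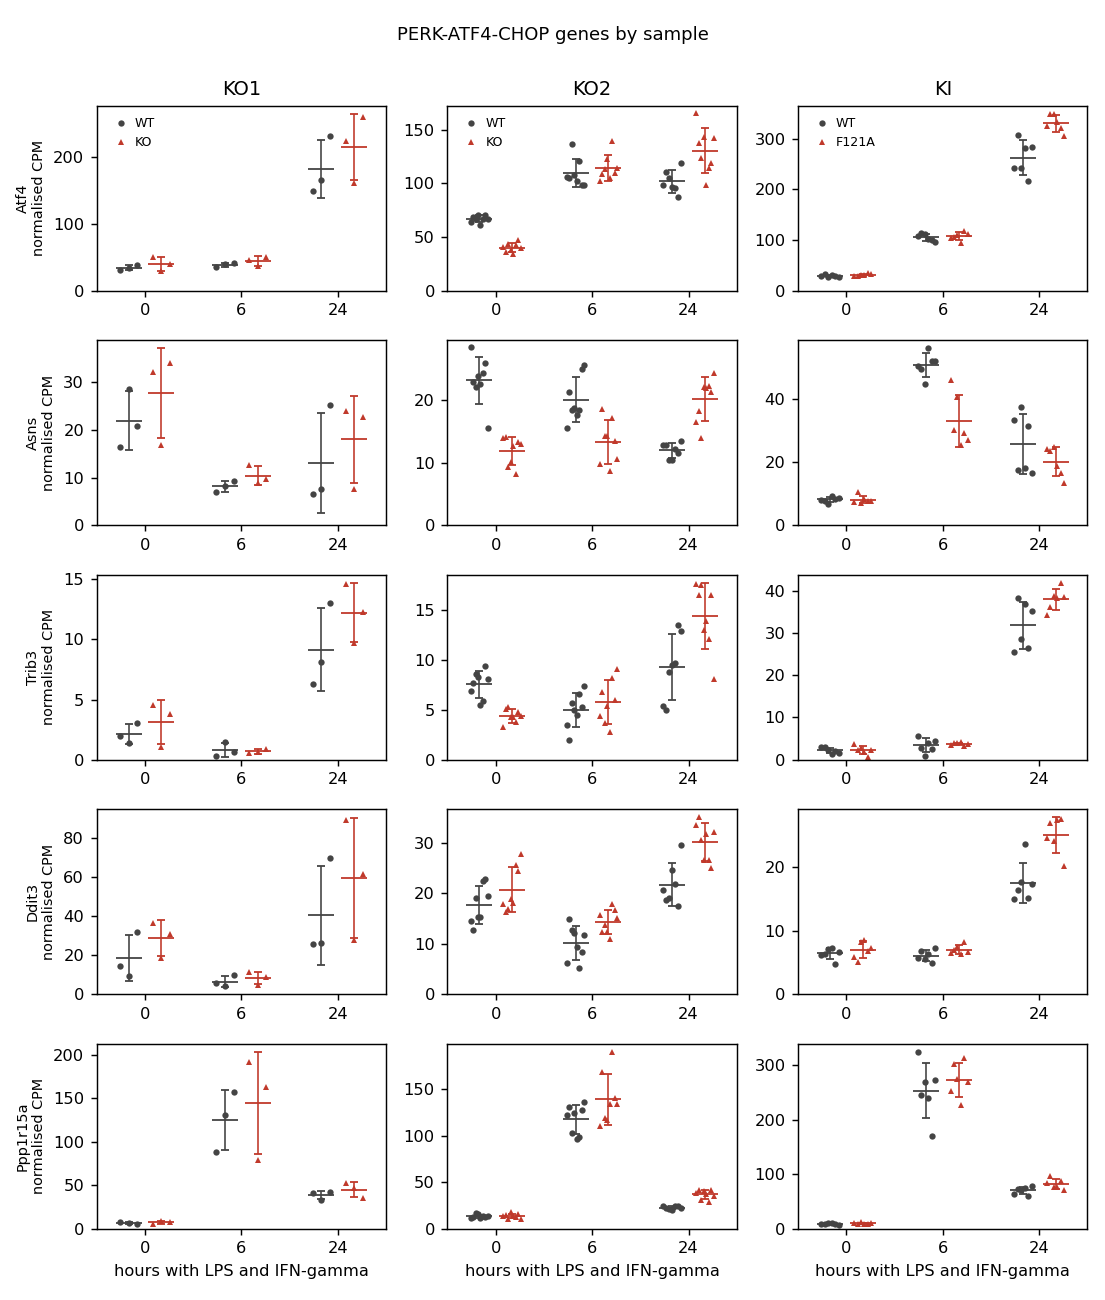
Normalised CPM of Atf4, Asns, Trib3, Ddit3 and Ppp1r15a (rows) at 0, 6 and 24 h in KO1, KO2 and KI (columns), with WT as grey circles and mutant as red triangles, 1 point per library (per culture in KO1); horizontal lines are means, bars are ± SD and each axis starts at 0. In KO2 the Asns KO points lie below the WT points at rest (8.25 to 14.1 against 15.5 to 28.6) and above them at 24 h (13.9 to 24.4 against 10.5 to 13.5).

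In the F121A cells, few members differed from littermate cells until 24 h. At rest 1 of 32 was called, against 2.94% of all genes in both directions and 2.37% higher. It was Eif2ak3, at 1.55, 2.77 and 3.36 in WT and 3.13, 4.84 and 8.26 in F121A libraries, with overlap (0.88 ± 0.25, adjusted p = 0.0402). The call was lost without replicate 5 of that group (0.72, adjusted p = 0.136), a library that stood apart in its scaling factor and in Becn1 and Xist, and with summed libraries (adjusted p = 0.0840). Canx had groups that did not overlap (306.6, 331.5 and 361.2 in WT, 222.3, 296.3 and 303.8 in F121A), as did 2.57% of all genes, but was not called (-0.25 ± 0.09, adjusted p = 0.170). The 31 members not called ranged from -0.63 (Chac1) to 0.24 (Edem1). The 4 stimulation genes (Nos2, Il6, Il12b and Cxcl9) were all called higher in resting F121A cells, and the part of this difference in the member values was not tested.

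At 6 h, 2 of 32 members were higher in KI and 1 was lower, against 7.91% and 3.52% of all genes and 11.4% in both directions. Creld2 was 19.7, 24.2 and 25.8 in WT and 26.1, 30.1 and 41.3 in F121A libraries, without overlap (0.40 ± 0.10, adjusted p = 0.00541), though not called without a low-count filter (adjusted p = 0.107). Atf6, which encodes the sensor cleaved in the Golgi under stress, was 33.7, 40 and 44 against 52.1, 53.9 and 55.8, clearly apart (0.44 ± 0.09, adjusted p = 3.7e-04). Asns was lower in F121A cells, at 25.3, 29.8 and 46 against 44.7, 51.2 and 56.1 (-0.62 ± 0.17, adjusted p = 0.00913), with overlap. These 2 members, Creld2 and Atf6, were the ones without overlap, against 5.98% of all genes. The 29 members not called ranged from -0.84 (Chac1) to 0.63 (Eif2ak3).

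At 24 h, 13 of 32 members were lower in F121A cells and 2 were higher, against 3.86% and 3.44% of all genes and 7.30% in both directions. The lower members were 8 of 11 chaperones, 2 of 4 disulfide isomerases, Herpud1, Sec61b and Ern1. The higher ones were Ddit3 and Atf4. The median over the members was -0.30. Groups did not overlap for 8 members (Hsp90b1, Sdf2l1, Creld2, Dnajc3, Pdia4, Pdia6, Sec61b and Ern1), against 3.19% of all genes. Of the 9 macrophage markers, 4 were called higher and 1 lower in the same comparison, and their part in these results was not tested.

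Sdf2l1 was 29.3, 39.5 and 44.3 normalised CPM in KI WT libraries at 24 h and 20.4, 21.6 and 26.3 in F121A libraries, without overlap (-0.76 ± 0.12, adjusted p = 1.9e-05). Creld2, which had been higher at 6 h, was 59.8, 65.6 and 71.8 against 41.4, 44.2 and 47.3, also apart (-0.57 ± 0.09, adjusted p = 2.6e-05). Hyou1, the ER HSP110 that recycles nucleotide on BiP, was 34.2, 52.1 and 59.7 against 24.1, 25.8 and 37.6 (-0.78 ± 0.16, adjusted p = 6.8e-04), and its groups overlapped. Calr (-0.69, adjusted p = 0.00637), Hsp90b1 (-0.37, 0.00237), Dnajc3 (-0.38, 0.00672), Manf (-0.34, 0.0358) and Canx (-0.29, 0.0365) were the other called chaperones. The Hspa5 difference was -0.27 ± 0.10 and was not called (adjusted p = 0.0990). Without a low-count filter Manf (adjusted p = 0.0862), Canx (0.0981), Ern1 (0.0764) and Atf4 (0.0782) lost their calls.

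Pdia4 stood at 58.3, 63.1 and 81.3 in KI WT and at 40, 46.8 and 55.2 in F121A libraries (-0.51 ± 0.11, adjusted p = 8.7e-04), and Pdia6 at 130.1, 144 and 164.5 against 87.4, 113.8 and 124.3 (-0.42 ± 0.10, adjusted p = 0.00519). Neither pair overlapped. Sec61b, a subunit of the translocon channel, was 18, 20.8 and 22.2 against 13.3, 15 and 17.2, also apart (-0.46 ± 0.12, adjusted p = 0.00969). Herpud1 was 7.14, 11 and 13 in WT and 4.76, 6.93 and 9.20 in F121A libraries (-0.54 ± 0.15, adjusted p = 0.0169), and missed the threshold when only the 24 h groups were fitted (0.0658). Ern1, the IRE1 gene, was 16.9, 21.4 and 24.9 against 14.5, 15.2 and 16.8 (-0.42 ± 0.12, adjusted p = 0.0233). In the other direction, Ddit3 was 14.9, 16.8 and 23.5 in WT and 20.1, 25.6 and 27.5 in F121A libraries (0.52 ± 0.12, adjusted p = 0.00421), and Atf4 was 215.8, 262.6 and 307.7 against 305.6, 329.6 and 348.8 (0.33 ± 0.08, adjusted p = 0.00571). Both pairs overlapped. Atf4 in WT replicates 1 to 6 alternated between odd and even numbers, at 242.6, 307.7, 242.9, 282.3, 215.8 and 283.9. Asns, not called here, did so as well (33.2, 17.4, 37.5, 18.2, 31.4 and 16.4). The same held for Herpud1 (12.4, 7.14, 12.3, 7.16, 13 and 9.70) and P4hb (2006, 2890, 1905, 2345, 1545 and 2344). Trib3 was another (25.5, 38.2, 28.6, 36.8, 26.4 and 35.1), whereas Ddit3 and Calr did not alternate. Summing neighbouring numbers pools odd with even replicates, and the source of the alternation was not tested. The 17 members not called ranged from -0.95 (Chac1) to 0.26 (Trib3).

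The joint test of genotype by time called 9 of 32 members in KI, against 8.33% of all genes. Its adjusted p covers the 6 h and 24 h parts together, and the 24 h part alone was not tested. For 8 of them the F121A cells lost ground against WT from rest to 24 h: Eif2ak3 (-1.46, adjusted p = 0.0385), Sdf2l1 (-0.75, 1.8e-04), Herpud1 (-0.71, 0.0312), Hyou1 (-0.67, 0.00555), Calr (-0.64, 0.0110), Pdia4 (-0.43, 0.00632), Creld2 (-0.42, 1.3e-05) and Pdia6 (-0.38, 0.00945). At 6 h, 6 of these 8 differed from rest in the other direction, from 0.24 (Pdia6) to 0.56 (Creld2), and Eif2ak3 (-0.25) and Herpud1 (-0.16) did not. The Eif2ak3 call was lost without replicate 5 of the resting F121A group (adjusted p = 0.0574). Atf6 was the remaining one, with 0.52 at 6 h and 0.15 at 24 h (adjusted p = 0.0112). No gene of the PERK branch was called.

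In KO1, none of the 32 members was called at 0, 6 or 24 h, and none in the genotype by time test. edgeR called 0.0292% (0.0219% higher and 0.00730% lower), 0.0146% and 0.00730% of all genes at the 3 times and 0 for genotype by time. DESeq2 likewise called no member, and voom on single libraries, with the culture as a random effect, called Hyou1 at 0 h and at 24 h. At an unadjusted p under 0.05 there were 2 members at rest (Hyou1 and Pdia4), 2 at 6 h (Dnajb9 and Ern1) and 3 at 24 h (Calr, Hyou1 and Chac1), and 1 for genotype by time (Ern1). Hyou1 at 24 h was 40.3, 31.6 and 18.4 normalised CPM in the WT cultures S33, S34 and S35 and 12, 13.6 and 21.3 in the KO cultures S36, S37 and S38 (-0.94 ± 0.28, adjusted p = 0.566). The low WT culture was S35, and its value fell within the KO range.

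The same culture was low in other chaperones. Calr at 24 h was 1088, 864 and 362 in WT and 354.6, 589.4 and 395.3 in KO cultures (-0.79 ± 0.34, adjusted p = 0.704). Hspa5 at rest was 658.1, 627.7 and 335.7 against 393.1, 347 and 405.5 (-0.50 ± 0.30, adjusted p = 0.883). The Calr value of S35 fell within the KO range and its Hspa5 value below every KO culture, while the other WT cultures lay above the KO range for both genes. Over all members the KO1 medians were -0.27, -0.03 and -0.15, and the PERK branch medians were 0.27, 0.20 and 0.44. Asns at rest was 16.4, 28.6 and 20.7 in WT and 32.2, 16.9 and 33.9 in KO cultures (0.33 ± 0.46), opposite in sign to its KO2 value. The 4 stimulation genes at rest summed to 26.9 to 188.8 CPM in KO1 KO cultures and to 3.42 to 9.75 in WT. The 8 neutrophil markers summed to 233.7 to 1076 against 109.3 to 175.9. Neither pair overlapped, and the part of these differences in the member values was not tested. Groups did not overlap for 7, 2 and 2 members at 0, 6 and 24 h, against 11.4%, 7.84% and 14.8% of all genes.

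The cohorts were compared by testing the difference of their genotype effects in a joint fit. KO2 and KI differed for 8 members at rest (3.81% of all genes), 6 at 6 h (12%) and 3 at 24 h (7.06%). At rest, all 8 had the lower effect in KO2: Eif2ak3 (-1.49), Asns (-0.99), Atf4 (-0.85), Herpud1 (-0.81), Sdf2l1 (-0.66), Manf (-0.60), Hspa5 (-0.58) and Hsp90b1 (-0.55), with adjusted p from 2.3e-07 (Atf4) to 0.0150 (Manf). The KI effect of Eif2ak3 was not called without replicate 5 of the resting F121A group (edgeR, adjusted p = 0.136). The cohort differences were not refitted without that library. At 6 h the 6 differences were likewise lower in KO2, the largest for Sdf2l1 (-0.82, adjusted p = 0.00322), Herpud1 (-0.79, 0.00432) and Atf6 (-0.66, 0.00766). At 24 h, Asns (1.16, adjusted p = 2.7e-05), Ern1 (0.70, 0.0179) and Dnajb9 (0.60, 0.0261) had the higher effect in KO2. KO2 and KI also differed in sex composition and in their controls, and these cannot be told apart from the genotype.

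KO2 and KO1 carry the same labelled genotypes. Their genotype effects differed for Atf4 (-0.94 ± 0.20, adjusted p = 0.00457) and Asns (-1.32 ± 0.33, adjusted p = 0.0389) at rest and for Creld2 at 6 h (1.16 ± 0.29, adjusted p = 0.0397), that is, 2, 1 and 0 members at 0, 6 and 24 h, against 0.480%, 0.354% and 0.283% of all genes. At 24 h no member had an unadjusted p under 0.05 (0 of 32), and DESeq2 also called 0. Calr, picked for its large KO2 fold at 24 h, was at -1.17 ± 0.16 in KO2, -0.79 ± 0.34 in KO1 and -0.69 ± 0.17 in KI. It is a single example, and other members need not line up in this way. Asns effects at 24 h differed by 1.16 between KO2 and KI. The Atf4 difference at rest was not called without a low-count filter (adjusted p = 0.0563). In KO2 the WT libraries held Xist and the KO libraries Ddx3y, whereas KO1 cultures of both genotypes expressed Ddx3y. The KO2 effects thus include a sex difference that the KO1 effects do not, and the 2 cannot be told apart here.

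The members were also followed over the stimulation in WT cells. Time comparisons depend on the scaling, because TMM placed fold changes of stimulated against resting cells 0.46 to 1.21 log2 units above those of plain CPM (1.03 and 1.03 in KO1, 0.83 and 0.46 in KO2, and 1.21 and 0.88 in KI for 6 and 24 h). Between 6 and 24 h the scalings differed by 0.37 or less, so this step is described first. From 6 to 24 h, 21, 23 and 19 members rose and 3, 2 and 9 fell in KO1, KO2 and KI. Of all genes, 54.2%, 58.9% and 65.2% were called, 28.5%, 31% and 33.6% upward. In each cohort 10 of 11 chaperones were called, all of them upward in KO1 and KO2 and 8 of them in KI, where Hspa5 (-0.88) and Manf (-0.27) fell. The Manf fall had the opposite sign in plain CPM.

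P4hb had the steepest rise of the folding genes in KO1 and KI. Its WT values in KO2 were 187.2, 212.4 and 234.1 at 6 h and 809.4, 1156 and 1413 at 24 h, and in KI 194.6, 233.8 and 266.9 and then 1545, 2175 and 2890, with no overlap. The KI values at 24 h alternated by replicate number, as given above. The log2 fold changes were 2.77 ± 0.27, 2.38 ± 0.12 and 3.22 ± 0.12 in KO1, KO2 and KI. Calr (1.98, 2.92 and 1.67), Creld2 (1.56, 2.5 and 1.47), Hyou1 (1.31, 2.5 and 1.31), Sdf2l1 (1.52, 2.55 and 1.25) and Pdia4 (1.14, 2.45 and 1.19) rose in all cohorts, in the order KO1, KO2 and KI. The Sdf2l1 rise in KO1 was lost without culture S33 (1.04, adjusted p = 0.113). Ppp1r15a was the gene of the PERK branch that fell in each cohort (-1.70, -2.37 and -1.85), while Trib3 (3.5, 0.90 and 3.09) and Ddit3 (2.65, 1.09 and 1.51) rose in each.

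**Figure D4:**
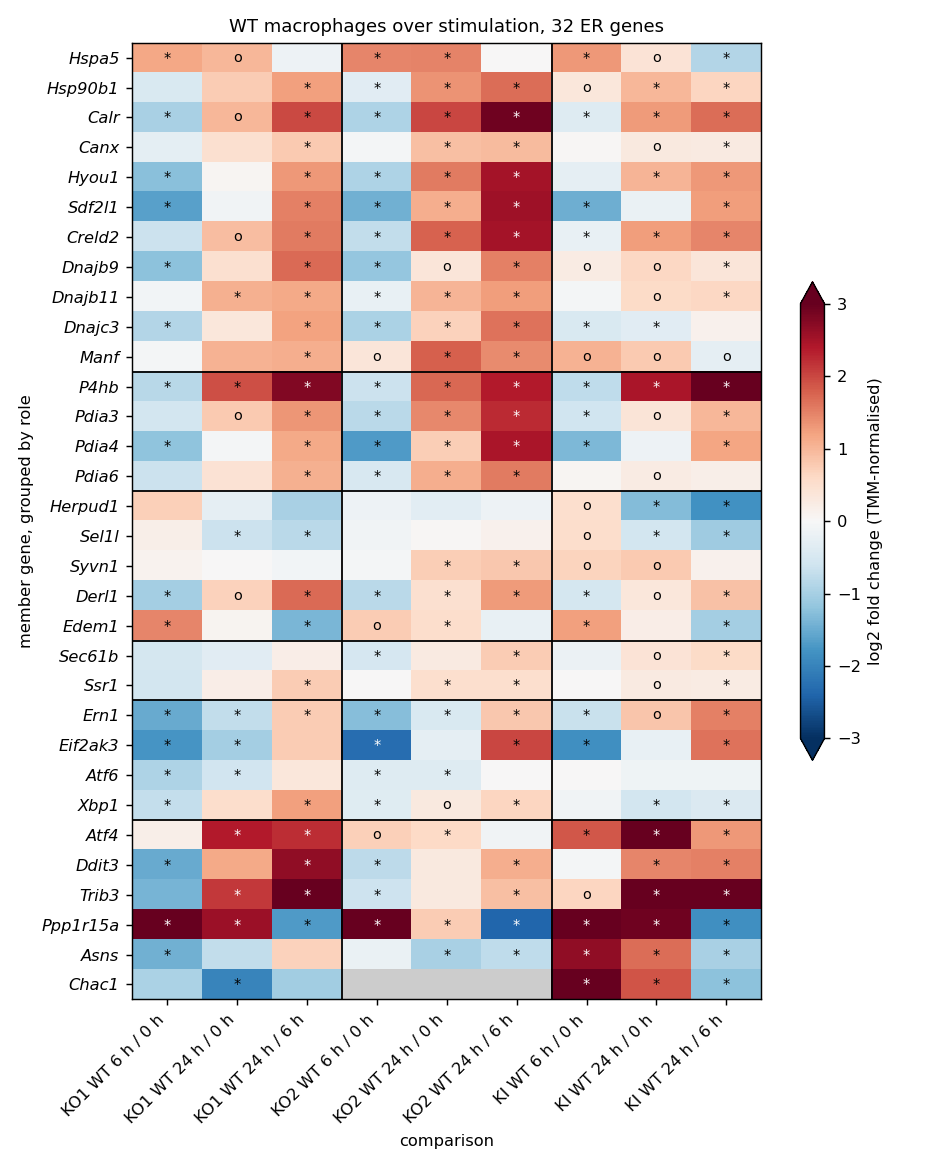
Log2 fold change between times in WT cells for the 32 members (rows, grouped by role) in KO1, KO2 and KI (columns), with the colour scale limited to ±3. A star marks a call (edgeR, adjusted p under 0.05), a circle a call whose plain CPM ratio has the opposite sign, and grey marks Chac1 in KO2, not tested; the chaperone and disulfide isomerase rows are mostly high for 24 h against 6 h, and Ppp1r15a is the highest row at 6 h against 0 h.

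From 0 to 6 h, 3, 5 and 13 members rose and 14, 20 and 10 fell in KO1, KO2 and KI, against 56.5%, 70.6% and 73.3% of all genes called. Of all genes, 25.5%, 32.4% and 36.5% were called upward and 30.9%, 38.3% and 36.8% downward. The 17 of 32 members called in KO1 and 23 of 32 in KI are shares near those of all genes. Without culture S33, 3 members rose and 8 fell in KO1. Ppp1r15a rose most, from 7.28, 7.2 and 5.11 to 88.6, 130.6 and 157.2 in the KO1 cultures S33, S34 and S35. In KO2 it went from 11.6, 12.7 and 16.7 to 96.5, 123.1 and 135.7, and in KI from 7.82, 9.61 and 10.7 to 170, 257.6 and 324.1. No groups overlapped, and the log2 fold changes were 4.26 ± 0.32, 3.12 ± 0.11 and 4.77 ± 0.13 (adjusted p = 9.1e-10, 2.0e-34 and 2.4e-36), with plain CPM ratios of 3.21, 2.31 and 3.55. Hspa5 rose in each cohort too (1.16, 1.46 and 1.31), but by only 0.12, 0.63 and 0.10 in plain CPM. Sdf2l1 (-1.63, -1.45 and -1.47), Pdia4 (-1.20, -1.71 and -1.35), P4hb (-0.83, -0.65 and -0.77) and Eif2ak3 (-1.77, -2.29 and -1.84) fell in each, and the plain CPM ratios were lower still. In KO2, 3 of the called members (Manf, Edem1 and Atf4) had the opposite sign in plain CPM, and in KI 7 (Hsp90b1, Dnajb9, Manf, Herpud1, Sel1l, Syvn1 and Trib3), in KO1 none. The call of P4hb in KO1 was lost without culture S33 (adjusted p = 0.0952).

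From 0 to 24 h, 10, 22 and 23 members were higher and 5, 3 and 4 lower in KO1, KO2 and KI, against 41.6%, 58.9% and 63.4% of all genes called. Of all genes, 21.2%, 29.5% and 33.7% were called higher and 20.4%, 29.5% and 29.7% lower. The 15 of 32 members called in KO1 are a share near that of all genes. Without culture S33, the KO1 counts were 5 higher and 1 lower. Of the members called, 5, 2 and 12 had the opposite sign in plain CPM. Atf4 and P4hb rose under both scalings in each cohort. Atf4 went from 26.8, 28.9 and 32.3 to 215.8, 262.6 and 307.7 in KI, from 61.1, 66.9 and 70.6 to 86.9, 98.6 and 119.2 in KO2, and from 31.6, 34.1 and 38.7 to 149.6, 165.8 and 232 in KO1. The log2 fold changes were 3.17 ± 0.09, 0.60 ± 0.09 and 2.39 ± 0.24, and in plain CPM 2.29, 0.15 and 1.37. The rise was smallest in KO2, where the resting values were highest, with levels scaled within each cohort.

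That the WT responses differed between cohorts was tested in comparisons chosen after seeing the data. From 0 to 24 h, KO2 differed from KI for 24 of 32 members (25.1% of all genes) and from KO1 for 13 (13.5%), and from 0 to 6 h for 13 (20.2%) and 2 (12.8%). These differences also rest on the scaling, which moved the cohorts unequally. Plain CPM fold changes at 6 and 24 h differed from TMM ones by -0.83 and -0.46 log2 units in KO2. The shifts were -1.21 and -0.88 in KI and -1.03 and -1.03 in KO1. The differences below are not given in plain CPM. Trib3 (-3.35 against KI and -1.72 against KO1), Atf4 (-2.46 and -1.70) and Ppp1r15a (-2.06 and -1.72) rose less in KO2 by 24 h. Of 11 chaperones, 9 rose more in KO2 than in KI and 5 more than in KO1, among them Sdf2l1 (1.42 and 1.30) and Calr (0.83 and 1.09), and none rose less. Of 4 disulfide isomerases, Pdia3, Pdia4 (1.0 and 0.88) and Pdia6 rose more in both comparisons, whereas P4hb rose less than in KI (-0.62, adjusted p = 0.00312) and was not called against KO1 (-0.13). Both comparisons use the same KO2 libraries. Asns at 6 h went opposite ways: it was 44.7, 51.2 and 56.1 in KI WT against 6.89, 8.21 and 9.29 at rest, and 6.95, 8.24 and 9.28 in the KO1 WT cultures, lowest to highest, against 16.4, 20.7 and 28.6 at rest (2.65 in KI and -1.43 in KO1). The KO1 fall was not called without culture S33 (adjusted p = 0.0525) or S34 (0.133).

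The 8 members with an ERSE were counted beside the 20 others of the promoter table. Herpud1, with its ERSE-II, was among these 20. Manf, Hyou1, Derl1 and Atf6 had no entry there and were left out. Among all genes, 4.38% were called lower in KO2 at rest. At 24 h, 4.99% were lower and 6.22% higher in KO2, and 3.86% and 3.44% in KI. In KO2 at rest 5 of 8 with the element were lower (median -0.42) and 8 of 19 without it (median -0.31). At 24 h the counts were 6 lower of 8 (median -0.36) in KO2, against 4 lower and 5 higher of 19 without it (-0.14), and 6 lower of 8 (-0.37) in KI, against 5 lower and 2 higher of 20 (-0.24). At 6 h in KO2, 2 with the element were higher (Creld2 and Syvn1) and 1 was lower (Hsp90b1), against 7.49% and 7.53% of all genes. Outside the members, 27 gene symbols had an ERSE in the promoter table, of which 4 or 5 were tested in a cohort, too few to set against the members. In WT cells from 6 to 24 h, 6, 7 and 4 of the 8 rose in KO1, KO2 and KI (medians 1.14, 1.61 and 0.22), against 12 of 20, 13 of 19 and 13 of 20 without the element (0.95, 0.82 and 0.61). In the same order 0, 0 and 1 with the element fell and 3, 2 and 7 without it. Among all genes, 28.5%, 31% and 33.6% rose and 25.6%, 27.9% and 31.6% fell. Lists this small are described and were not tested against each other.

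Other genes of the same processes, 118 in 5 lists, were called in differing shares. Among all genes, 8.12% were called in KO2 at rest, 3.73% higher and 4.38% lower. In resting KO2 cells 1 of 25 tested folding and glycosylation genes was lower, Erp29 (-0.40 ± 0.09, adjusted p = 0.00135), a thioredoxin-fold ER protein. Of 20 translocation genes 1 was lower, the signal peptidase subunit gene Spcs2 (-0.29), and of 18 degradation genes none (3 at an unadjusted p under 0.05, none by DESeq2). Of 23 ATF4 targets, the mitochondrial folate enzyme gene Mthfd2 (-0.73 ± 0.11, adjusted p = 1.4e-06) and Atf3 (-0.67 ± 0.10, adjusted p = 1.1e-06) were lower, and Slc7a11, the cystine transporter, was higher (0.62 ± 0.12, adjusted p = 1.6e-04). Among 19 other sensors and transducers Eif2ak2 was higher (0.36), and D10Wsu52e, an older symbol of Rtcb, whose product joins the spliced Xbp1 exons, was lower (-0.38).

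In KO2 at 6 h the ATF4 list gave 1 higher, Slc7a11 (0.52), and 2 lower, Psat1 (-0.76) and Gars (-0.26), and the degradation list 2 higher (Erlec1, 0.69, and Edem2, 0.32) and 1 lower (Vcp, -0.58), the ATPase that extracts substrates from the membrane. Sensors and transducers gave 4 higher, led by Bcl2l11 (0.63) and Nfe2l2 (0.40), and 1 lower. The folding list had only Txndc11 (0.45) and the translocation list none (1 at an unadjusted p under 0.05, none by DESeq2). Among all genes, 7.49% were called higher and 7.53% lower in KO2 at 6 h. The shares were 6.22% and 4.99% at 24 h. At 24 h, 6 of 25 folding genes were lower, among them Rpn1 (-0.59 ± 0.10, adjusted p = 2.0e-05) of the oligosaccharyltransferase and Fkbp2 (-0.66 ± 0.14, adjusted p = 3.1e-04), and 2 were higher, with Dnajc1 at 1.12 ± 0.11 (adjusted p = 5.1e-13). Of 23 ATF4 targets 4 were higher, including Slc7a11 (0.66) and Nupr1 (0.67), and 2 were lower, including the serine synthesis gene Psat1 (-0.74). Of the remaining lists, Sec11c (-0.59) and Vcp (-0.39) were lower and Edem2 (0.44), Bcl2l11 (0.48) and Nfe2l2 (0.27) were higher.

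In F121A cells at rest, 2 of 26 folding genes (Stt3b, 0.90, and Txndc5, 0.57), 1 of 20 translocation genes (Tram1, 0.52) and 3 of 18 degradation genes (among them Herpud2, 0.89, and Ube2j2, 0.66) were higher, and none of these was lower. Among all genes, 2.37% were called higher and 0.574% lower. No ATF4 target was called among 24 by edgeR, with 1 at an unadjusted p under 0.05 (Slc3a2, which DESeq2 called), and no sensor or transducer among 19, with 2 at an unadjusted p under 0.05 and none by DESeq2. Among all genes, 7.91% were called higher and 3.52% lower in KI at 6 h. The ATF4 targets were then the list with most calls, 4 of 24 higher (Psat1, 0.76 ± 0.12, adjusted p = 3.2e-06, and Nupr1, 0.72 ± 0.11, adjusted p = 4.7e-06, led) and 9 lower (Slc7a11, -0.94 ± 0.18, adjusted p = 5.3e-04, led), with a list median of -0.39. Psat1 and Slc7a11 had the opposite signs in KO2 at that time. The other lists at 6 h gave 1 folding gene higher (Txndc5, 0.52), 2 translocation genes higher (Tram1, 0.46, and Ssr3, 0.30), 3 degradation genes higher and 1 lower (Nploc4, -0.44), and 3 transducers higher (Bbc3, 1.11, Tmbim6, 0.33, and Traf2, 0.30).

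At 24 h in KI, 5 of 26 folding genes were lower, including Dnajc1 (-0.69 ± 0.14, adjusted p = 6.3e-04), Rpn1 (-0.37 ± 0.08, adjusted p = 0.00149) and Fkbp2 (-0.57 ± 0.13, adjusted p = 0.00224), and none was higher. Among all genes, 3.86% were called lower and 3.44% higher. Rpn1 and Fkbp2 were lower in both mutants at this time, whereas Dnajc1, a J-domain protein of the ER membrane, went opposite ways in KO2 and KI. Translocation genes gave 2 lower (Ssr4, -0.47, and Sec11c, -0.33). Degradation genes gave 1 lower (Edem2, -0.54) and 1 higher (Ube2j2, 0.51), ATF4 targets 2 higher (Atf3, 0.67, and Nupr1, 0.41) and 2 lower (Iars, -0.59, among them), and transducers 1 lower (Bcl2l11, -0.41). No gene of any list was called by edgeR or DESeq2 in the KO1 genotype comparisons, where at most 3 genes of a list had an unadjusted p under 0.05, and voom called Slc7a11 at rest. In WT cells from 6 to 24 h, 18 of 26, 21 of 25 and 19 of 26 folding and glycosylation genes rose in KO1, KO2 and KI and 0, 1 and 2 fell. Among all genes, 28.5%, 31% and 33.6% rose and 25.6%, 27.9% and 31.6% fell.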

How the data were processed

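Raw read counts per gene symbol were deposited by the authors as whole numbers in 1 table per cohort; reads were handled with TopHat and HTSeq on mm10, per the submitters' processing notes, with versions and settings not given in the sources used here. Counts were tested with edgeR 4.0.16 (R 4.3.3) by the quasi-likelihood F test, after filterByExpr and TMM scaling, with 1 mean for each of the 6 groups of a cohort. The Benjamini-Hochberg adjustment took in every gene tested, and an adjusted p under 0.05 was a call. KO1 repeats of a culture were summed. Cohorts were compared in joint fits of the counts. Alternatives were DESeq2 1.42.0, its size factors, no filter, 2 groups only, a replicate block, summed libraries, voom (limma 3.58.1), and each KO1 culture left out. The edgeR script was tested on simulated data. Libraries held from 1448218 to 15627379 counts, which sets the precision of each value; Smart-Seq2 reads carry no molecular identifiers, so counts include PCR copies. No 2 replicate libraries were alike within sampling noise (smallest chi-square per degree of freedom 2.79 over 467 pairs).

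The members and lists were chosen with earlier results of these data known. In each role class and comparison, values are given for the called members with the smallest adjusted p, 3 at most (all where 5 or fewer were called), and up to 3 called genes per other list, with Becn1, Xist and Ddx3y as checks. A gene of the degradation list is not reported here by name. Lists for macrophages, neutrophils, monocytes, dendritic, B and plasma, T and NK and stromal cells and for stimulation were read for cell composition. In KO2 the neutrophil list summed to 26.5 CPM or less in each library, and the dendritic, lymphocyte and stromal lists to 14.7 CPM or less. The neutrophil list reached 1076 CPM in the resting KO1 KO cultures. 2 libraries had labels that disagree with each other and were kept; their omission is among the alternatives. The pairing check is given with the alternatives. Protein sequences were not used here.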

Additional observations from a re-analysis of the deposited data

Results flagged for a closer look

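In 25 of 378 combinations of a member and a group of 6 to 8 libraries, 1 library stood apart from the rest by a gap test at the 95% level, which chance alone gives in about 5% of groups. Values are normalised CPM, with the range of the other libraries of the group. Several members were involved in the same library in 5 cases. Replicate 4 of the KO2 WT 0 h group stood apart in P4hb (215.2 against 314.5 to 403.7), Ssr1 (55.0 against 75.1 to 83.2) and Atf6 (19.7 against 31.5 to 38.8). In replicate 9 of KO2 WT 24 h these were Hyou1 (20.2 against 45.5 to 59.8), Sel1l (20.5 against 40.9 to 51) and Atf6 (16.4 against 23.5 to 28.8). For KO2 KO 6 h replicate 7 the values were Hyou1 (3.65 against 8.88 to 12.9), Sel1l (18.5 against 33.5 to 45.9) and Ssr1 (37.1 against 59.7 to 74.7). Replicate 5 of the KI WT 6 h group stood apart in Pdia6 (101.2 against 130.4 to 143.8) and Derl1 (65.5 against 76.8 to 80.9). In replicate 5 of KI F121A 0 h these were Pdia3 (361.8 against 545.4 to 652.8) and Edem1 (105.8 against 52.3 to 60.5). Single values in KO2 WT libraries were Herpud1 in replicate 4 at 6 h (11.9 against 6.59 to 8.94) and Sec61b in replicate 8 at 24 h (16.9 against 24.2 to 28.6). Single values in KO2 KO libraries were Dnajc3 in replicate 8 at 0 h (25.4 against 30.6 to 34.5), P4hb in replicate 2 at 6 h (212.7 against 106.6 to 153.2) and Syvn1 in replicate 8 at 24 h (21.6 against 13.3 to 16). Single values in KI WT libraries were Sel1l in replicate 2 at 0 h (85.1 against 69.5 to 75.3), Manf in replicate 6 at 24 h (30 against 42.2 to 47), Eif2ak3 in replicate 1 at 24 h (0.976 against 2.26 to 2.91) and Ddit3 in replicate 4 at 24 h (23.5 against 14.9 to 17.6). Single values in KI F121A libraries were Asns in replicate 2 at 0 h (10.5 against 7.07 to 8.18), Creld2 in replicate 4 at 6 h (41.3 against 26.1 to 31.3) and Edem1 in replicate 6 at 6 h (116.2 against 133.9 to 144.2).

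The response differed between genotypes, by the joint edgeR test of genotype by time, for 9 members in each of 2 cohorts; the values are the 24 h part of that difference (mutant minus WT, log2). In KO2 they were Asns (1.78), Atf4 (1.09), Calr (-0.39), Creld2 (-0.15), Edem1 (-0.17), Pdia4 (-0.14), Ppp1r15a (0.66), Syvn1 (0.09) and Trib3 (1.41), with adjusted p from 1.8e-10 to 0.0499. In KI they were Atf6 (0.15), Calr (-0.64), Creld2 (-0.42), Eif2ak3 (-1.46), Herpud1 (-0.71), Hyou1 (-0.67), Pdia4 (-0.43), Pdia6 (-0.38) and Sdf2l1 (-0.75), with adjusted p from 1.3e-05 to 0.0385.

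The genotype effect differed between cohorts in joint fits. At 0 h the effect in KO2 minus that in KI was Asns (-0.99), Atf4 (-0.85), Eif2ak3 (-1.49), Herpud1 (-0.81), Hsp90b1 (-0.55), Hspa5 (-0.58), Manf (-0.60) and Sdf2l1 (-0.66), with adjusted p from 2.3e-07 to 0.0150. At 6 h the effect in KO2 minus that in KI was Atf6 (-0.66), Herpud1 (-0.79), P4hb (-0.51), Pdia3 (-0.47), Sdf2l1 (-0.82) and Xbp1 (-0.58), with adjusted p from 2.1e-04 to 0.0348. At 24 h the effect in KO2 minus that in KI was Asns (1.16), Dnajb9 (0.60) and Ern1 (0.70), with adjusted p from 2.7e-05 to 0.0261. KO2 minus KO1 gave Asns (-1.32) and Atf4 (-0.94) at rest and Creld2 (1.16) at 6 h, with adjusted p from 0.00457 to 0.0397.

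The response of WT cells differed between cohorts, in comparisons chosen after seeing the data. From 0 to 6 h, KO2 minus KI was Asns (-2.75), Atf4 (-1.05), Chac1 (-2.49), Ddit3 (-0.63), Dnajb9 (-1.30), Dnajc3 (-0.41), Herpud1 (-0.56), Hsp90b1 (-0.58), Manf (-0.58), Pdia6 (-0.43), Ppp1r15a (-1.55), Syvn1 (-0.62) and Trib3 (-1.16), with adjusted p from 9.9e-20 to 0.0418. From 0 to 24 h, KO2 minus KI was Asns (-2.54), Atf4 (-2.46), Calr (0.83), Canx (0.70), Chac1 (-2.91), Creld2 (0.61), Ddit3 (-1.05), Dnajb11 (0.55), Dnajc3 (1.12), Ern1 (-1.18), Herpud1 (1.12), Hsp90b1 (0.47), Hspa5 (1.16), Manf (1.12), P4hb (-0.62), Pdia3 (1.14), Pdia4 (1.0), Pdia6 (0.97), Ppp1r15a (-2.06), Sdf2l1 (1.42), Sel1l (0.68), Ssr1 (0.34), Trib3 (-3.35) and Xbp1 (0.95), with adjusted p from 9.1e-32 to 0.0430. From 0 to 6 h, KO2 minus KO1 was Asns (1.13) and Ppp1r15a (-1.22), with adjusted p from 2.9e-04 to 0.0249. From 0 to 24 h, KO2 minus KO1 was Atf4 (-1.70), Calr (1.09), Creld2 (0.91), Hsp90b1 (0.68), Hyou1 (1.60), Pdia3 (0.74), Pdia4 (0.88), Pdia6 (0.76), Ppp1r15a (-1.72), Sdf2l1 (1.30), Sec61b (0.69), Syvn1 (0.82) and Trib3 (-1.72), with adjusted p from 3.8e-10 to 0.0491. Cohort, the alleles its controls carry and, for KO1, sex cannot be told apart in these differences. They also rest on the scaling between resting and stimulated cells, which differed between cohorts.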

How the results depend on the processing

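The limits are these: KO1 has 3 cultures per genotype, sex and genotype coincide in KO2, and the counts of time comparisons rest on the scaling between resting and stimulated cells. At the depth of these libraries the least abundant members (Chac1, Eif2ak3 and Trib3) carried the widest errors. No value of a called member changed sign in any refit, whereas plain CPM ratios, which are no refit, had the opposite sign for the called members counted beside the time comparisons. For members called in the main fit, 2573 of the alternative values kept the call and 141 lost it. Members that gained a call in an alternative are not in this tally. The lost calls that the text names stand beside their results.

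Counts of members called stayed between 12 and 14, 9 and 12, and 12 and 18 for KO2 at 0, 6 and 24 h, and between 11 and 16 for KI at 24 h. The following counts moved by more than 1.5 times, and the cause was not tested. For KO1 KO against WT, voom on single libraries called 1 member at 0 h and 1 at 24 h where edgeR called 0. The 1 call in KI at 0 h became 0 with summed libraries and 0 without F121A 0 h replicate 5. The 3 members that differed between KO2 and KI at 24 h became 5 with DESeq2 and 1 with no filter. In the WT comparisons of cohorts from 0 to 6 h, the 13 members for KO2 against KI became 8 with no filter, and the 2 for KO2 against KO1 became 4 with DESeq2 and 4 with its size factors. With single KO1 cultures left out, counts ranged from 11 to 21 for 6 h against 0 h, from 6 to 14 for 24 h against 0 h and from 17 to 24 for 24 h against 6 h, lowest without S33 in each case.

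Replicate numbers were not taken as pairing. Same-numbered samples deviated together (every r over 0.1) in 3 of 6 tested pairs of groups in KO1, 0 of 15 in KO2 and 0 of 15 in KI. In KO1, 12 of 18 comparisons had the sample correlate best with its own number, against 28 of 115 in KO2 and 24 of 90 in KI, which is a hint from the data; the KO1 labels repeat S33 to S38 at each time without saying what they name. With the replicate number as a block, 14, 11 and 17 members were called in KO2 at 0, 6 and 24 h and 1, 4 and 16 in KI, and 22, 19 and 24 for the 3 WT time comparisons of KO1.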
